A study of Mus musculus with 6 samples.

Results

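Interferon-stimulated genes are the transcripts that cells switch on when interferons bind their receptors, and 38 of them were followed here in sorted spleen dendritic cells lacking TAK1. The members were taken from a fixed list of gene symbols and fall into 27 antiviral genes of the type I interferon response and 11 genes of the interferon-gamma response, most of them GTPases. Of the 38 symbols, 33 were matched to at least 1 probe set with a single gene symbol, 24 antiviral and 9 interferon-gamma genes, out of 17097 genes represented on the array in the same way. Isg15, Oas1a, Ifi44, Gbp5 and Gbp6 were not analysed here, and the helicase RIG-I is listed under its older symbol, Ddx58. Where a gene had several probe sets, the brightest one, by its mean on the 6 arrays, stands for it.

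The study hybridised RNA of splenic CD11c+ dendritic cells from C57Bl/6 mice to Affymetrix arrays, with 3 knockout and 3 wild-type samples. Knockout samples are labelled Map3k7CreER, and tamoxifen given in vivo for 3 days deletes Map3k7, the gene of the kinase TAK1, in such mice. Wild-type samples are labelled WT and came from mice given tamoxifen in the same way. The labels name no promoter for the Cre, so deletion is not stated to be limited to dendritic cells, and they leave unsaid whether replicates are different mice. P-values therefore measure the spread between these samples, which may be technical. Values are log2 signals, on which a difference of 1 is a doubling, the array medians lay between 3.77 and 3.81, and the number of arrays limits the precision.

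Type I interferons act through the receptor chains Ifnar1 and Ifnar2 and lead to the binding of interferon-stimulated response elements in the promoters of antiviral genes. Interferon-gamma acts through Ifngr1 and Ifngr2 and, through gamma-activated sites, switches on guanylate-binding proteins and immunity-related GTPases, the proteins that attack the vacuoles of intracellular microbes. Resting dendritic cells keep many of these genes at a low tonic level, and TAK1 lies in the Toll-like receptor and TNF receptor pathways that can lead to interferon production.

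The targeted transcript was low in the libraries labelled knockout. Map3k7 read 4.04, 4.46 and 3.64 in knockout samples, against 6.68, 6.69 and 6.57 in wild-type samples, a difference of -2.60 (SE 0.19, limma adjusted p = 0.00128). The dendritic cell markers H2-Aa, Cd74, Itgax and Flt3 read above 10 on all 6 arrays, and Flt3 stood at 0.35 (SE 0.12) with groups that did not overlap. Zbtb46, a transcription factor of conventional dendritic cells, read 7.75, 7.38 and 7.21 in knockout samples, against 8.08, 8.26 and 8.25 in wild-type samples, a difference of -0.75 (SE 0.14, limma adjusted p = 0.0621). The 5 measured of 6 dendritic cell markers averaged between 11.25 and 11.36 in knockout arrays and between 11.36 and 11.48 in wild-type arrays, while 6 measured of 7 markers of NK, T and B cells averaged 4.01 to 4.18 in knockout arrays and 4.03 to 4.13 in wild-type arrays.

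The comparison asked how these interferon-stimulated genes stand in dendritic cells without TAK1. None of the 33 measured members passed an adjusted p of 0.05 in either direction (0 higher and 0 lower, limma, p adjusted by Benjamini-Hochberg across 45037 probe sets), nor did any of their 48 probe sets (0 of 48). Over all 17097 genes 1.08% were called higher and 0.591% lower, 1.67% in all. At an unadjusted p under 0.05 there were 6 members, 4 higher and 2 lower, which is 18.2% of those measured, against 16.4% of all genes. Among genes with a mean level of at least 5 the shares were 20.7% of members and 28.6% of all genes. The members went in both directions. The largest differences belonged to Usp18, the protease that strips the ubiquitin-like protein Isg15 from its targets and damps interferon receptor signalling, which was 2.14-fold lower, and to Oas2, an oligoadenylate synthetase that senses double-stranded RNA, which was 1.83-fold higher.

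Of the 33 members 23 had a negative and 10 a positive difference, and 53.9% of all genes had a negative one. The median difference was -0.14 over the 24 antiviral members and -0.11 over the 9 interferon-gamma members, against -0.02 over all genes. Groups did not overlap for 5 members, 3 higher and 2 lower, which is 15.2% of those measured. Over all genes 21.2% had groups that did not overlap, 10.6% higher and 10.6% lower, and among the 7460 genes with a mean level of at least 5 the share was 31.7%, against 17.2% of the 29 members at such levels. The members' shares without overlap were thus below those of all genes. Negative differences were more frequent among members than among all genes, which was not tested. The 4 members under that level were Mx2, Oas3, Ido1 and Nos2.

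**Figure D1:**
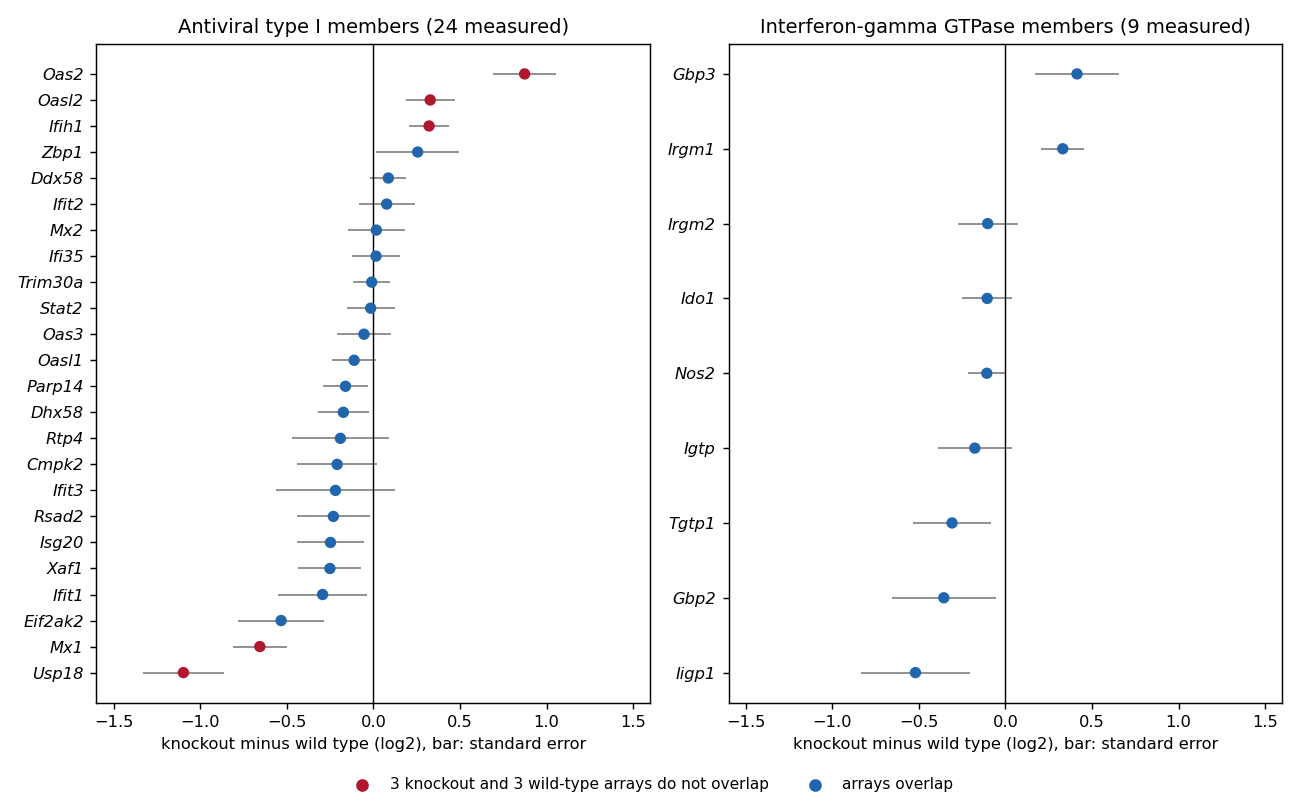
Log2 difference, knockout minus wild type, of the 24 measured antiviral members (left) and the 9 measured interferon-gamma members (right), with the standard error as a bar. Red points mark the 5 members whose 3 knockout and 3 wild-type arrays do not overlap, with Oas2 at 0.87 and Usp18 at -1.10 as the ends of the range.

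Usp18 had the largest difference of any member. It read 8.98, 8.19 and 8.22 in knockout samples, against 9.41, 9.90 and 9.38 in wild-type samples. All knockout arrays lay below all wild-type arrays, with knockout replicate 1 the nearest to them. The difference was -1.10 (SE 0.23, limma adjusted p = 0.0789). Over 14 alternatives it ran from -1.35 to -0.93, with adjusted p between 0.0164 and 0.274, and it passed with trended and robust variances (adjusted p = 0.0335) and without knockout replicate 1 (adjusted p = 0.0164).

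The dynamin-like GTPase Mx1 was the other member with knockout arrays all below wild type. Mx1 read 6.55, 6.41 and 6.96 in knockout samples, against 7.23, 7.46 and 7.20 in wild-type samples, a difference of -0.66 (SE 0.16, limma adjusted p = 0.11). It passed in 1 of 14 alternatives, without knockout replicate 3 (-0.82, adjusted p = 0.0455). Its relative Mx2 read 4.64, 4.45 and 4.83 in knockout samples, against 4.85, 4.73 and 4.30 in wild-type samples. Mx2 groups overlapped widely, at 0.02 (SE 0.17).

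The oligoadenylate synthetases make the second messenger that activates RNase L, which degrades viral and cellular RNA. Oas2 read 6.22, 6.47 and 6.86 in knockout samples, against 5.70, 5.83 and 5.41 in wild-type samples. All knockout arrays lay above all wild-type arrays, and the difference was 0.87 (SE 0.18, limma adjusted p = 0.0724). Over 14 alternatives Oas2 ran from 0.70 to 1.02, and it passed on means of probe sets, where fewer rows are tested (adjusted p = 0.0463), and without knockout replicate 1 (adjusted p = 0.0414). Oasl2, a family member with ubiquitin-like domains, also had groups that did not overlap, at 7.45, 7.28 and 7.34 in knockout samples and 7.06, 7.28 and 6.76 in wild-type samples, but the nearest arrays were almost level and the difference was 0.33 (SE 0.14, limma adjusted p = 0.402). Oasl1, which in mice restrains translation of Irf7 mRNA, read 5.46, 5.37 and 5.78 in knockout samples, against 5.61, 5.73 and 5.604 in wild-type samples, at -0.11 (SE 0.13). Oas3 was dim in both groups, between 3.48 and 3.89 in knockout samples and between 3.48 and 3.98 in wild-type samples. Family members with opposite signs thus stood side by side, and the difference between Oas2 and its relatives was not tested.

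**Figure D2:**
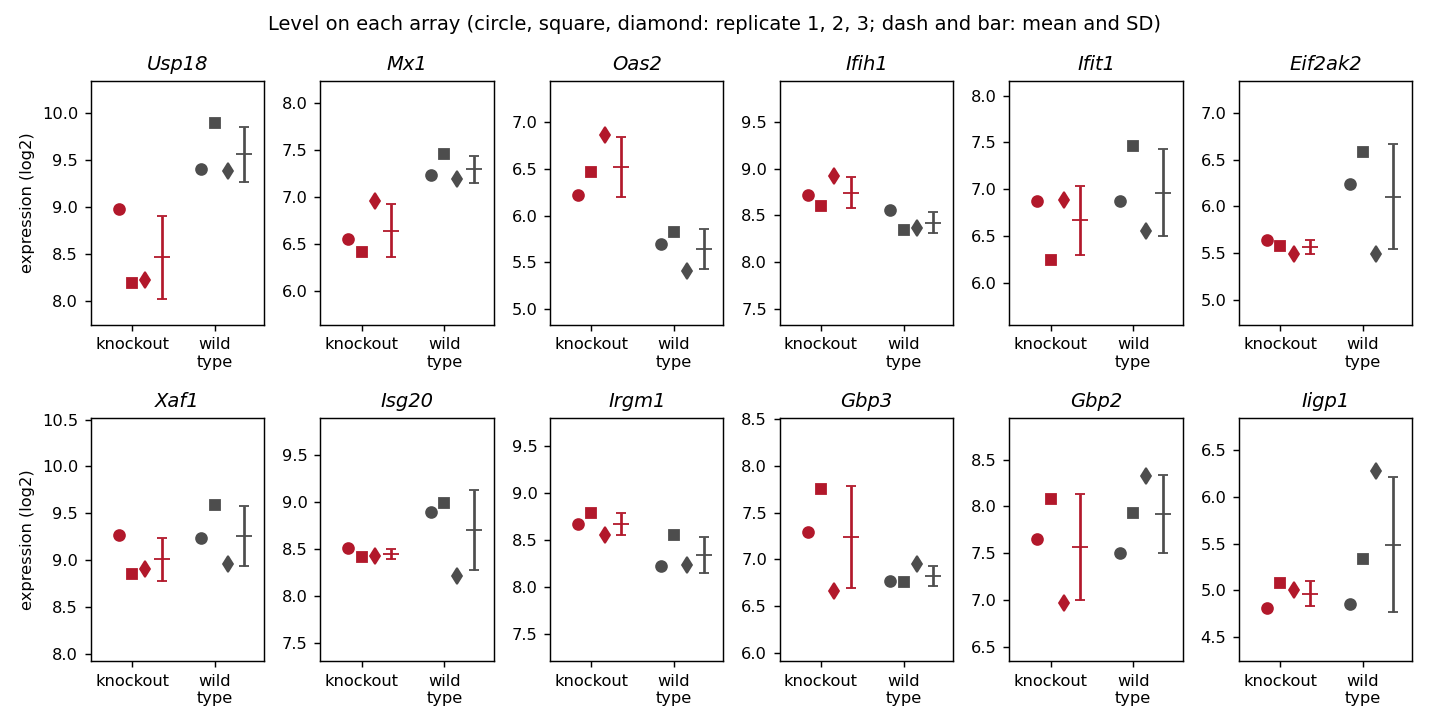
Log2 level of 12 members on each array, with knockout samples left of wild-type samples, the replicate number as the symbol, and the mean with its SD beside the points. All panels span the same range of 2.6. Usp18 and Mx1 separate downward and Oas2 and Ifih1 upward in knockout samples, while in Eif2ak2 and Isg20 the lowest wild-type array lies at or below the knockout arrays.

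Sensors of foreign nucleic acid form the next group. Ifih1, the helicase MDA5 that detects long double-stranded RNA, read 8.72, 8.60 and 8.92 in knockout samples, against 8.56, 8.35 and 8.37 in wild-type samples. The groups did not overlap, by a margin of a few hundredths between the nearest arrays, and the difference was 0.32 (SE 0.12, limma adjusted p = 0.305). Eif2ak2, the kinase PKR that halts translation on double-stranded RNA, read 5.65, 5.57 and 5.49 in knockout samples, against 6.24, 6.58 and 5.49 in wild-type samples. Wild-type replicate 3 alone lay among the knockout arrays, and the difference of -0.53 (SE 0.25, limma adjusted p = 0.446) was -0.84 without that array (adjusted p = 0.0515). The helicases Ddx58 and Dhx58 and the Z-nucleic acid sensor Zbp1 stood at 0.09, -0.17 and 0.26, each with groups that overlapped. The brightest probe sets of Ddx58 and Dhx58 have dimmer companions of the opposite sign, as do those of Stat2, Rsad2 and Trim30a, so that 5 of the 12 members with several probe sets had both signs among them.

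The Ifit proteins bind viral RNA through tetratricopeptide repeats and are among the most strongly induced interferon targets. Ifit1 read 6.88, 6.25 and 6.89 in knockout samples, against 6.87, 7.47 and 6.55 in wild-type samples. The groups overlapped, with the lowest array in the knockout group and the highest in the wild-type group, and the difference was -0.29 (SE 0.26, limma adjusted p = 0.75). It was -0.04 without wild-type replicate 2 and -0.50 without wild-type replicate 3. Ifit3 spread further, at 8.02, 7.44 and 7.92 in knockout samples and 8.12, 8.70 and 7.21 in wild-type samples, at -0.22 (SE 0.35). Ifit2 read 7.55, 7.34 and 7.67 in knockout samples, against 7.64, 7.58 and 7.11 in wild-type samples, at 0.08 (SE 0.16).

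The groups of every remaining antiviral member overlapped. Isg20, an exonuclease that degrades RNA, read 8.51, 8.42 and 8.43 in knockout samples, against 8.90, 8.99 and 8.21 in wild-type samples, at -0.25 (SE 0.20). Again wild-type replicate 3 was the low array. Rsad2, the radical-SAM enzyme viperin, read 7.83, 7.57 and 8.47 in knockout samples, against 8.26, 8.22 and 8.09 in wild-type samples, at -0.23 (SE 0.21), and its genomic neighbour Cmpk2, a nucleotide kinase, stood at -0.21 (SE 0.23). Xaf1, a pro-apoptotic antagonist of the inhibitor Xiap, read 9.27, 8.85 and 8.91 in knockout samples, against 9.23, 9.59 and 8.96 in wild-type samples, at -0.25 (SE 0.18). The signal transducer Stat2 read 4.89, 5.25 and 5.38 in knockout samples, against 5.19, 5.28 and 5.10 in wild-type samples, at -0.02 (SE 0.14). Ifi35 read 9.39, 9.26 and 9.28 in knockout samples, against 9.34, 9.54 and 9.01 in wild-type samples, at 0.01 (SE 0.14). The ubiquitin ligase Trim30a, the ADP-ribosyltransferase Parp14 and the chaperone Rtp4 stood between -0.19 and -0.01.

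Promoter sequences of GTPase members, and of Ifit1 and Ifit3, are given as a description. They were looked up because the GTPases varied together from array to array, as described further on. A link between sequence and that variation was not tested. RefSeq promoter windows of 300 bases, 250 before the transcript start and 50 after it, were matched by symbol for 26 of the 38 members (build GRCm38.p6). The response element was searched on both strands as GAAA, any 2 bases and GAAA again, and the gamma-activated site as TTCNNNGAA, which reads the same on both strands. The stretches shown lie wholly before the start, in the direction of transcription, with matches in capitals.
Igtp, chr11:58199491-58199546, plus strand: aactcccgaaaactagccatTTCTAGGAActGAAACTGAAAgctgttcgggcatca
Irgm2, chr11:58214882-58214937, plus strand: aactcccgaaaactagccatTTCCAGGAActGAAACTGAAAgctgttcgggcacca
Tgtp1, chr11:48992299-48992354, minus strand: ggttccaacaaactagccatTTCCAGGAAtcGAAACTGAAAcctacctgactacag
Irgm1, chr11:48871421-48871470, minus strand: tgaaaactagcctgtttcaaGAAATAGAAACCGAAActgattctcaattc
Gbp2, chr3:142620584-142620628, plus strand: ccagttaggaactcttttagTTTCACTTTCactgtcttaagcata
Gbp3, chr3:142559979-142560029, plus strand: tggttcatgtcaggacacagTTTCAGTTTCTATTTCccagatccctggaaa
Ifit1, chr19:34640765-34640828, plus strand: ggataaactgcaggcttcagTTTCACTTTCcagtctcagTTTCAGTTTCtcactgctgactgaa
Ifit3, chr19:34583353-34583431, plus strand: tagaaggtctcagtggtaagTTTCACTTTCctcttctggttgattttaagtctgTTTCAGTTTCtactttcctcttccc

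In Igtp, Irgm2 and Tgtp1 a match to the gamma-activated site began 11 bases before a match to the response element. The Igtp and Irgm2 stretches were identical at 54 of 56 bases, and Tgtp1 shared 36 of 56 with Igtp and 38 of 56 with Irgm2. This arrangement occurred in 5 of 32851 promoter windows (0.0152%). The other windows belonged to Tgtp2, a close copy of Tgtp1, and Gm12185, also on chromosome 11, and the spacing was chosen after the sequences were seen. Matches in Gbp2, Gbp3, Ifit1 and Ifit3 ran on the opposite strand, and Irgm1 and Gbp3 each held matches that overlapped. The response element matched in 7 of 7 interferon-gamma members with a window and in 11 of 19 antiviral members. Counted by window it matched in 7 of 8 and 12 of 23, against 3.44% of all windows. The gamma-activated site matched in 4 of 7 and 5 of 19 members, where a member can have several windows, against 8.3% of all windows. Among the measured members with a window, differences ran from -0.53 to 0.41 in the 15 with a response element match (median -0.10) and from -0.25 to 0.33 in the 7 without one (median -0.11). Usp18, Oas2 and Mx1, the members with the largest differences, had no window and are in neither set. A match is a description of letters, and no binding was measured.

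Immunity-related GTPases remodel or guard the membranes of parasite vacuoles, and those of the Irgm kind, Igtp included, regulate the effector GTPases. Irgm1 had the largest positive difference of the family. It read 8.67, 8.79 and 8.56 in knockout samples, against 8.22, 8.56 and 8.24 in wild-type samples. Knockout replicate 3 and wild-type replicate 2 met at the same level, the other arrays were apart, and the difference was 0.33 (SE 0.12, limma adjusted p = 0.317). Iigp1, an effector that destroys the vacuole of Toxoplasma in mice, read 4.82, 5.08 and 5.004 in knockout samples, against 4.86, 5.34 and 6.27 in wild-type samples. One array, wild-type replicate 3, set its difference of -0.52 (SE 0.31, limma adjusted p = 0.596), which was -0.13 without it.

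The genes with the paired motif had negative differences and groups that overlapped. Igtp read 7.41, 7.90 and 7.08 in knockout samples, against 7.57, 7.92 and 7.44 in wild-type samples, at -0.18 (SE 0.22). Irgm2 read 5.72, 5.98 and 5.45 in knockout samples, against 5.63, 6.12 and 5.71 in wild-type samples, at -0.10 (SE 0.17). Tgtp1, whose probes may also detect Tgtp2, read 9.34, 9.36 and 8.81 in knockout samples, against 9.25, 9.93 and 9.25 in wild-type samples, at -0.31 (SE 0.22). In each of these 3 genes replicate 2 was the highest array of both groups, and the lowest was knockout replicate 3. This order was not particular to them. All 7 measured GTPases among the interferon-gamma members were highest in knockout replicate 2 within the knockout group, and 6 were lowest in knockout replicate 3. Irgm1, without the paired motif, was also highest in replicate 2 of both groups.

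Guanylate-binding proteins coat and break open pathogen vacuoles and bacterial membranes. Gbp2 read 7.65, 8.08 and 6.96 in knockout samples, against 7.499, 7.93 and 8.33 in wild-type samples, at -0.36 (SE 0.30, limma adjusted p = 0.738), and at -0.06 without knockout replicate 3. Gbp3 read 7.29, 7.76 and 6.67 in knockout samples, against 6.77, 6.76 and 6.95 in wild-type samples. Its wild-type arrays lay close together, its knockout arrays spread over 1.09, and the difference of 0.41 (SE 0.24, limma adjusted p = 0.586) was 0.16 without knockout replicate 2 and 0.70 without knockout replicate 3. The effector enzymes Ido1, which breaks down tryptophan, and Nos2, which makes nitric oxide, were close to the array median in both groups. Nos2 read 3.47, 3.46 and 3.36 in knockout samples, against 3.36, 3.64 and 3.62 in wild-type samples. Ido1 lay between 3.62 and 4.05 in knockout samples and between 3.73 and 4.11 in wild-type samples. At such levels a transcript may be unexpressed, and any fold is understated.

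The members moved more between arrays of the same group than other genes did. The median SD within a group was 0.21 in knockout and 0.28 in wild-type samples for the antiviral members, and 0.26 and 0.25 for the interferon-gamma members, against 0.16 and 0.17 for all genes with a mean level of at least 5. The order of arrays was shared. Among the 24 antiviral members, 20 were lowest in knockout replicate 2 within the knockout group and 21 were lowest in wild-type replicate 3 within the wild-type group. For genes with a mean level of at least 5, these arrays were lowest in 24.3% and 44.7%. The interferon-gamma members ran otherwise in the knockout group, where 7 of 9 were highest in replicate 2 and 8 of 9 lowest in replicate 3, against 25% and 47.1% of genes at such levels. These counts describe the arrays and carry no test, since the members are not independent of each other.

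**Figure D3:**
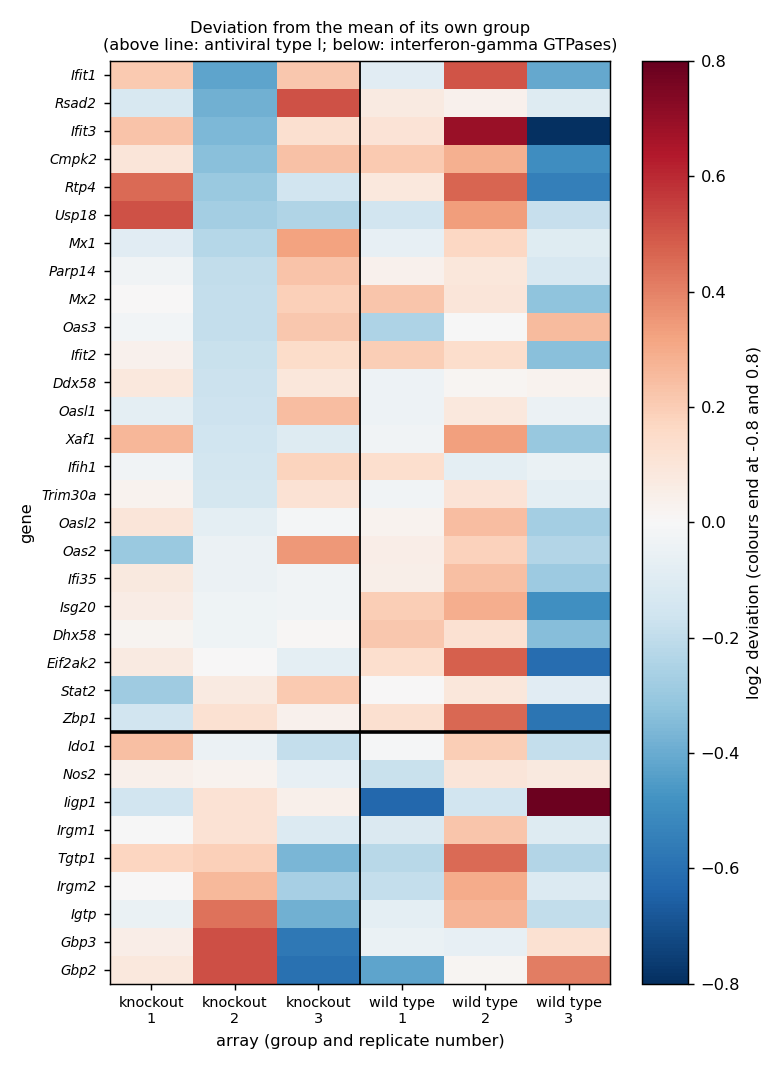
Deviation of each measured member (rows) on each array (columns) from the mean of its own group, in log2 units, with antiviral members above the black line and interferon-gamma members below it. Knockout replicate 2 is blue for most antiviral members and red for the GTPases, and wild-type replicate 3 is blue for most antiviral members.

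Summed up per array, the median deviation of the antiviral members from their mean over 6 arrays was 0.00038, -0.20 and 0.13 in knockout samples, against 0.11, 0.19 and -0.26 in wild-type samples. That of the interferon-gamma members was -0.01, 0.21 and -0.32 in knockout samples, against -0.14, 0.19 and -0.08 in wild-type samples. Within each group the arrays thus differed by more than the medians of the groups did. Without wild-type replicate 2 the antiviral median difference was -0.00694, and without wild-type replicate 3 it was -0.19. Without knockout replicate 3 the interferon-gamma median difference was -0.0105, and without knockout replicate 2 it was -0.23.

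Markers of other cells also varied by array. The mean level of 5 measured of 6 monocyte and neutrophil markers was 6.56, 7.49 and 6.07 in knockout samples, against 5.92, 5.28 and 5.76 in wild-type samples. Among knockout arrays replicate 2 was the highest and replicate 3 the lowest, as for most GTPases. Among wild-type arrays replicate 2 was the lowest for these markers, whereas 6 of 9 interferon-gamma members were highest there. All 5 markers had positive differences, while 53.9% of all genes had a negative one. An unadjusted p under 0.05 was reached by 4 of the 5, against 16.4% of all genes and 28.6% of genes with a mean level of at least 5. None passed the threshold (0 of 5). S100a8, an alarmin of neutrophils and monocytes, read 7.48, 9.29 and 6.83 in knockout samples, against 6.11, 4.81 and 5.84 in wild-type samples, at 2.28 (SE 0.60, limma adjusted p = 0.147). S100a9, Lcn2, Ccr2 and Ngp stood at 1.53, 0.73, 0.57 and 0.15. The mean of 4 measured of 6 plasmacytoid dendritic cell markers was 7.70, 7.94 and 7.22 in knockout samples, against 7.70, 7.40 and 7.38 in wild-type samples. That of 7 measured of 8 macrophage markers was 7.14, 7.23 and 6.85 in knockout samples, against 6.63, 6.47 and 6.51 in wild-type samples. In this list 3 genes, Cd163, Cd5l and Mertk, passed the threshold as higher, where 1.08% of all genes did. Of its other genes, Hmox1 stood at -0.53 with knockout arrays all below wild type (limma adjusted p = 0.134), Adgre1 at -0.28, Spic at 0.0047 and Vcam1 at 0.29. The part of these cells in the members' values was not tested, and in bulk RNA fewer cells of a type and less RNA per cell cannot be told apart.

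Upstream of the members, the interferon system showed no called change in its ligands, receptors or signalling genes (0 of 4, 0 of 6 and 0 of 8 measured, limma, with 0, 1 and 1 at an unadjusted p under 0.05). Of all genes 1.67% were called, so lists this short can hold 0 calls at that share. Groups did not overlap for 25%, 50% and 25% of these lists, against 21.2% of all genes and 31.7% of genes with a mean level of at least 5. Ligand transcripts had mean levels between 3.25 and 3.44, below the array medians, where a transcript may be unexpressed. Ifnb1 read 3.39, 3.66 and 3.37 in knockout samples, against 3.26, 3.43 and 3.51 in wild-type samples, and Ifng, at -0.16 (SE 0.09), did not pass the threshold although its knockout arrays all lay below its wild-type arrays. The ligand-binding chain Ifngr1 read 11.20, 11.33 and 11.44 in knockout samples, against 10.95, 10.90 and 10.74 in wild-type samples. These groups did not overlap, with a difference of 0.46 (SE 0.11, limma adjusted p = 0.106). Ifnar2, the chain with the next smallest p, read 10.42, 10.43 and 10.33 in knockout samples, against 10.28, 10.19 and 9.93 in wild-type samples, at 0.26 (SE 0.11, limma adjusted p = 0.416). Ifnar1 stood at 0.25 (SE 0.13) without overlap, and Ifngr2 at -0.24 (SE 0.12) with groups that overlapped. Among signalling genes the phosphatase Ptpn11 stood at 0.21 (SE 0.09) and the kinase Jak1 at 0.48 (SE 0.22). None of 10 genes of nucleic acid sensing and interferon induction was called (0 of 10, 1 at an unadjusted p under 0.05), and the smallest p-values were those of Sting1 and Tlr3. Sting1, the adaptor of cytosolic DNA sensing, read 9.17, 9.71 and 9.72 in knockout samples, against 8.92, 9.16 and 8.73 in wild-type samples, without overlap (limma adjusted p = 0.195). Tlr3, the endosomal sensor of double-stranded RNA, stood at -0.51 (SE 0.22), with groups that overlapped.

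Other interferon-stimulated genes outside the list did include calls. Of 25 measured, 1 was called higher and 2 lower, where 1.08% and 0.591% of all genes were. Groups did not overlap for 15, 11 higher and 4 lower. That is 60% of them, against 21.2% of all genes and 31.7% of genes with a mean level of at least 5. This list was chosen with earlier results of these data known, so its shares describe the chosen genes only. Ifitm1, a membrane protein that blocks virus entry, read 11.45, 12.06 and 12.28 in knockout samples, against 10.31, 10.14 and 10.53 in wild-type samples, a 3.04-fold rise (limma adjusted p = 0.0152). Cxcl9 fell to 10.31, 10.47 and 10.43 in knockout samples, against 11.99, 11.88 and 11.95 in wild-type samples, a difference of -1.54 (limma adjusted p = 0.000492). Cxcl10 fell to 6.31, 6.27 and 6.51 in knockout samples, against 7.90, 7.66 and 7.46 in wild-type samples, a difference of -1.31 (limma adjusted p = 0.00611). Both chemokines attract T cells through Cxcr3. For all 3 genes the gap between the groups was wider than the range of the arrays within the wild-type group.

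**Figure D4:**
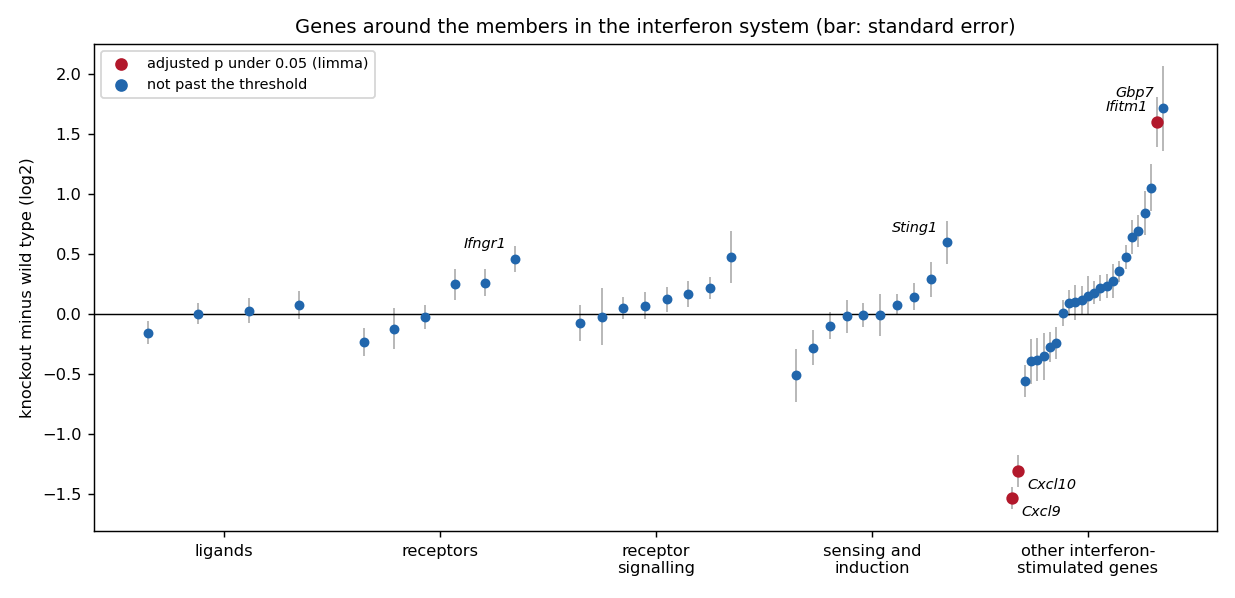
Log2 difference, knockout minus wild type, of 53 genes around the members in the interferon system, by role, with the standard error as a bar. Red points passed the threshold (Ifitm1 as higher, Cxcl10 at -1.31 and Cxcl9 at -1.54 as lower). The ligands, whose levels were below the array medians, lie close to 0.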

How the data were processed

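The deposited values are log2 signals of 45141 probe sets on 6 arrays, which the authors produced with RMA; the submitters' processing notes name Affymetrix Expression Console 1.1. RMA subtracts background, applies quantile normalization and combines the probes of a set. The log2 scale was read from the values (2.58 to 13.9). After removing 104 controls, 45037 probe sets entered a model without covariates in limma 3.58.1 (lmFit and eBayes, R 4.3.3), Benjamini-Hochberg adjustment over all of them and a threshold of 0.05. One gene symbol was listed for 28898 probe sets, several for 551 and none for 15588, and genes were named only from the first kind. The fit was tested on simulated data. Arrays give no depth. Members and gene lists were chosen with earlier results of these data known. Per-array values are given for members past the threshold, those with groups that did not overlap and a difference of at least 0.58, and the extremes of each family. Igtp, Irgm2, Tgtp1, Ifit3, Oasl2, Oas3 and Ido1 were added after their values were seen, for shared promoters, non-overlap or dim signal, as were the marker genes and the receptors Ifnar1 and Ifngr2. The labels do not say whether same-numbered samples of the groups were paired, and the main model did not pair them. With 3 against 3 arrays an exact permutation test cannot go below p = 0.1, so none was run.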

Additional observations from a re-analysis of the deposited data

How the results depend on the processing

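The count of members past the threshold was 0 higher and 0 lower. It was 1 higher on means of probe sets or at an adjusted p under 0.1, 1 lower with trended and robust variances or at an adjusted p under 0.1, and between 0 and 1 in each direction with 1 array left out. Means of probe sets test fewer rows, and the cause of the other changes was not tested. Over all genes 285 passed, 459 on means of probe sets, and from 61 (without knockout replicate 2) to 475 (without knockout replicate 1) with 1 array left out. With the replicate number as a block 542 genes passed, 0 members among them. Deviations of same-numbered samples correlated at 0.0816, 0.152 and 0.373, and those of differently numbered samples between -0.328 and 0.28. Knockout replicate 1 correlated best with another number (0.28). With 3 arrays in each group these values cannot decide whether the numbers pair the samples. Median differences stayed negative, from -0.19 to -0.08 over the other alternatives and from -0.19 to -0.00694 with 1 array left out for the antiviral members, and from -0.18 to -0.09 and from -0.23 to -0.0105 for the interferon-gamma members. Without Ido1 and Nos2, a choice made after seeing the data, the interferon-gamma median was -0.18. Of 19 members tested this way 15 kept their direction in every alternative run, 14 for each but Nos2, which has 13 because it falls below the median level that 1 of them requires. Ifit2 turned to -0.0279 with array weights and ran from -0.0906 to 0.18 with 1 array left out. Mx2 turned to -0.0135 with a further quantile normalization and -0.10 with array weights, and ran from -0.14 to 0.13. Stat2 turned to 0.0895 on means of probe sets and ran from -0.12 to 0.13. Ifi35 turned to -0.0038 with a further quantile normalization and -0.0189 with array weights, and ran from -0.13 to 0.14. The cause was not tested. Signal close to the array median limits Mx2, Oas3, Ido1 and Nos2.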

Other observations

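Some interferon-stimulated genes outside the members had differences larger in size than those of most members. The genes in this paragraph were chosen after their values were seen. Gbp7, a guanylate-binding protein, read 6.93, 8.52 and 7.63 in knockout samples, against 5.83, 5.85 and 6.25 in wild-type samples, a difference of 1.72 (SE 0.35, limma adjusted p = 0.0712), with knockout replicate 2 again the highest array. Trim25, a ubiquitin ligase that activates RIG-I, read 9.61, 9.33 and 10.13 in knockout samples, against 8.77, 8.54 and 8.60 in wild-type samples, at 1.05 (SE 0.19, limma adjusted p = 0.0522). Ifi204 and Ifi203, DNA-binding proteins of the Ifi200 family, stood at 0.84 and 0.69, and Samd9l at -0.56, with groups that did not overlap (limma adjusted p = 0.0792, 0.0599 and 0.106).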
